A study of Mus musculus with 12 samples.

Results

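The 10 transcripts described here encode the mTOR kinase, its core partners and its closest regulators and substrates: Mtor, Mlst8, Rptor, Rictor, Tsc1, Tsc2, Rheb, Ddit4, Rps6kb1 and Eif4ebp1. They were chosen by gene symbol, and all 10 were found among the 22561 genes of the count table. All 10 also passed the filter on low counts that left 9431 genes for testing. RNA was measured in follicular (FO) B cells sorted from 10-week-old C57BL6 mice. FO B cells are the recirculating mature B cells of the spleen. Of the 4 groups of 3 samples, 1 was unstimulated, 1 was stimulated with IFNa, a type I interferon, 1 with CpG, a synthetic DNA that is sensed by TLR9, and 1 with CpG plus IFNa, each stimulus for 12 h. No genetic change is named for any group. Whether the unstimulated cells were also kept in culture, and whether the 3 samples of a group came from separate mice, is not stated in the sources used here, so p-values measure the spread between these samples, which may be technical.

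mTOR is a kinase that couples nutrients and growth signals to cell growth. With MLST8 and RPTOR it forms mTORC1, which phosphorylates S6 kinase (encoded by Rps6kb1) and the translation repressor 4E-BP1 (encoded by Eif4ebp1), and with MLST8 and RICTOR it forms mTORC2, which phosphorylates AKT and SGK kinases. The GTPase RHEB activates mTORC1, the TSC1 and TSC2 complex switches RHEB off, and DDIT4 (REDD1) acts through TSC to hold mTORC1 down. In activated B cells mTORC1 is known for supporting growth and antibody secretion. Its activity is set largely by phosphorylation, which RNA counts do not measure.

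Counts are of unique molecular identifiers (UMIs) read at the 3′ end of transcripts, and levels are given as normalized CPM (UMI counts scaled to a common library total), scaled between libraries by edgeR's TMM factors. Totals were between 922450 and 2923865 UMI counts per sample and were lowest in unstimulated cells. IFNa replicate 2 and CpG + IFNa replicate 2 were the deepest library of their group and held the most nuclear rRNA, 3.14% and 2.88% of counts against 0.519% to 1.81% in the other samples. Calls that were lost without both are named beside the results. The B cell markers Ms4a1, Cd79a, Cd79b and Pax5 were detected in every sample and were lower in every sample with CpG than in any without it. Cd79b, a subunit of the B cell receptor, read between 1720 and 2240 CPM in unstimulated cells and between 2110 and 2480 CPM with IFNa, but between 197 and 241 CPM with CpG and between 112 and 152 CPM with CpG + IFNa. Pax5, the transcription factor that keeps B cell identity, changed least of these, from between 657 and 718 CPM in unstimulated cells to between 395 and 490 CPM with CpG. The follicular genes Fcer2a and Cr2 were also lower in every stimulated sample than in any unstimulated sample. Cd93, a marker of immature B cells, went the other way with CpG, from between 21.2 and 24.6 CPM in unstimulated cells to between 49.7 and 76.4 CPM, and read between 13.0 and 23.1 CPM with IFNa and between 15.3 and 31.4 CPM with CpG + IFNa. Of the T cell markers, Cd3g and Cd8a had 0 counts in all 12 samples and Cd3d had at most 2. Siglech, which defines plasmacytoid dendritic cells, had 0 counts, and myeloid markers summed to at most 22.5 CPM in any sample. Erythroid globin genes varied widely within groups, from 51.2 to 317 CPM in unstimulated cells, 11.4 to 311 CPM with IFNa, 4.49 to 54.6 CPM with CpG and 5.65 to 63.3 CPM with CpG + IFNa, and their part in the results was not tested. In bulk RNA, fewer cells of a type and less RNA per cell cannot be told apart.

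Positions are those of GENCODE M21 on GRCm38, from the first to the last annotated base of each gene. The kinase and its partners are Mtor at chr4:148448611-148557683 (plus strand), Mlst8 at chr17:24473551-24479078 (minus strand), Rptor at chr11:119602905-119899576 (plus strand) and Rictor at chr15:6708379-6800401 (plus strand). The regulators are Tsc1 at chr2:28641228-28691167 (plus strand), Tsc2 at chr17:24595816-24632630 (minus strand), Rheb at chr5:24802823-24842624 (minus strand) and Ddit4 at chr10:59949669-59951834 (minus strand), and the substrates are Rps6kb1 at chr11:86498871-86544805 (minus strand) and Eif4ebp1 at chr8:27260329-27276674 (plus strand). The 3′ tags counted fall near the last exon of each transcript.

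The stretch upstream of Ddit4 is shown because Ddit4 was the member with the largest fall under CpG and the only member called between CpG + IFNa and CpG. A 30-base stretch of the Rheb promoter is shown because it holds the only match found among the members. Both are RefSeq sequences of GRCm38.p6 on the minus strand, written 5′ to 3′, and capitals mark an E-box (CACGTG).
Ddit4, chr10:59951835-59952020: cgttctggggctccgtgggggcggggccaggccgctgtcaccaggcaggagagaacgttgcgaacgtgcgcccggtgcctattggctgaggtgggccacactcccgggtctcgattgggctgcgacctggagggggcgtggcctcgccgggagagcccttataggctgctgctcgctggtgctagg
Rheb, chr5:24842440-24842469: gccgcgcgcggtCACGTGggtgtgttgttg
The Ddit4 stretch covers the 186 bases upstream of the gene start in GENCODE M21, which lies 64 bases upstream of the RefSeq start. It is 69.9% G or C with 16 CpG dinucleotides. The Rheb E-box begins 96 bases upstream of the RefSeq start, whereas GENCODE M21 places the gene start 263 bases further upstream, so that the match lies inside the gene by that annotation.

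Promoters of 300 bases were in the RefSeq table for 9 of the 10 members, all but Eif4ebp1, and were searched on both strands for 3 motifs. The E-box, which is bound by MYC and TFEB family factors, was present in 1 of the 9 and in 7.15% of all 32851 promoters. The CRE (TGACGTCA) and an ATF4-type motif (TGATGNAA) were in 0 of the 9, and in 1.79% and 3.97% of all promoters. With a single match, no motif overlapped another, and a match is only a description of letters.

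**Figure D1:**
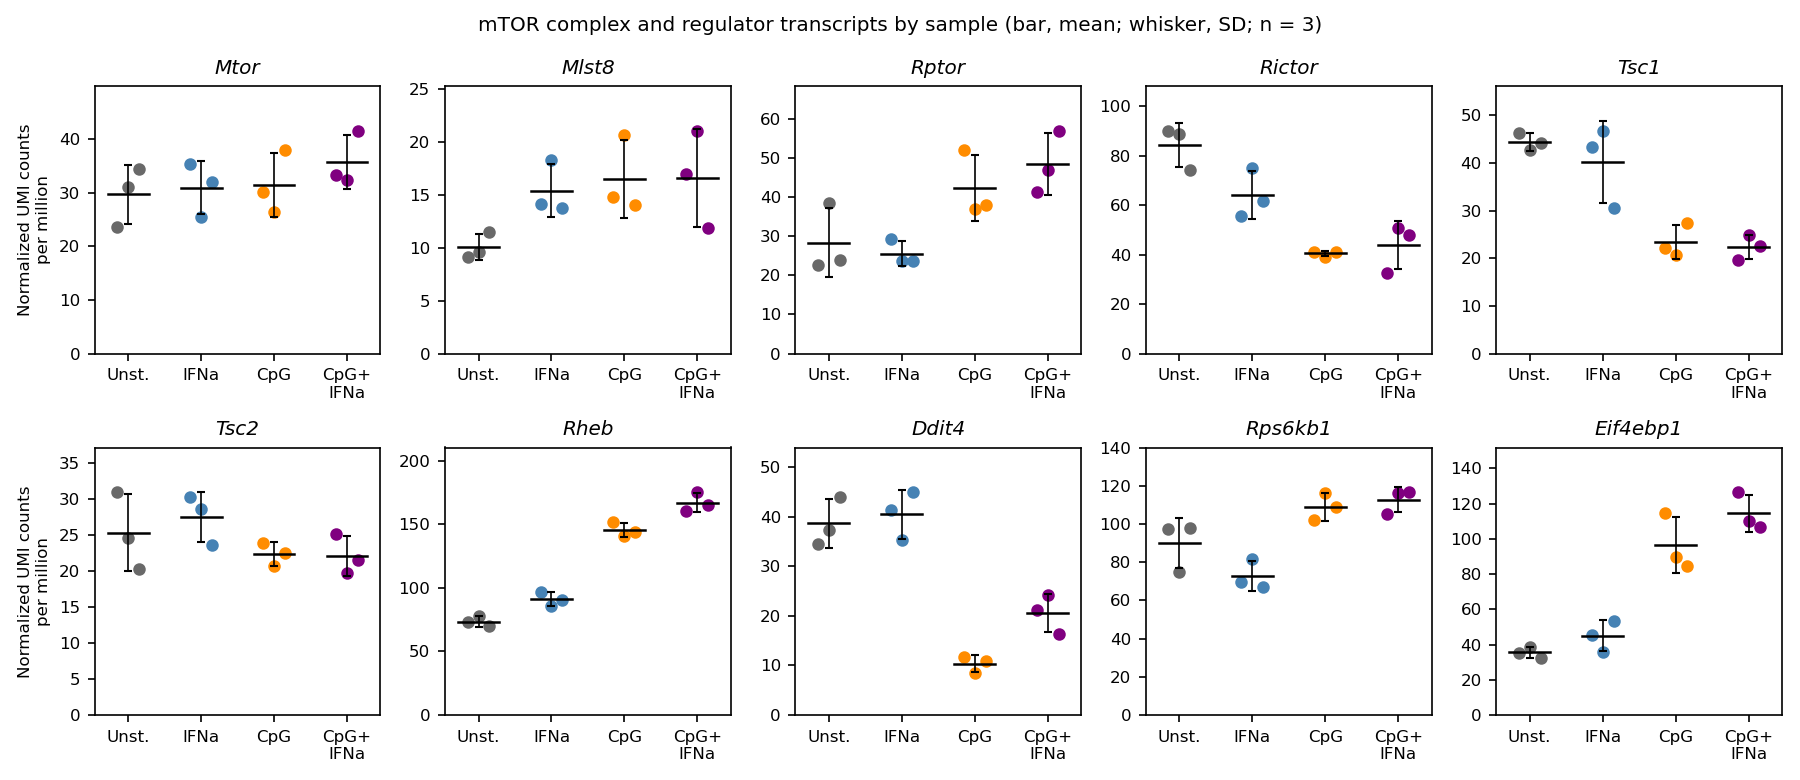
Normalized CPM (vertical axes, each from 0) of the 10 transcripts in the 12 samples, with points for samples, bars for group means and whiskers for the SD (n = 3). Ddit4 drops from a mean of 38.7 CPM in unstimulated cells to 10.4 CPM with CpG and stands at 20.6 CPM with CpG + IFNa, while Rheb and Eif4ebp1 climb under both stimuli that contain CpG and the Mtor means lie between 29.7 and 35.8 CPM.

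CpG against unstimulated cells. This comparison sets cells given CpG alone for 12 h beside unstimulated cells. Because it is not stated whether the latter were cultured, effects of CpG and of culture cannot be told apart. The same holds for the other comparisons with unstimulated cells. Transcripts of Rptor, Rheb and Mlst8 and of the substrates Rps6kb1 and Eif4ebp1, which encodes a translation repressor, were higher. Transcripts of Rictor and of the inhibitors Tsc1 and Ddit4 were lower, and those of Mtor and Tsc2 did not pass the test. A gene was called when the adjusted p of edgeR's quasi-likelihood test (Benjamini-Hochberg over all 9431 genes) was under 0.1. By that rule 5 of the 10 members were higher and 3 were lower, beside 36.5% and 38.4% of all genes tested, so that calls in both directions were common among all genes. The median log2 fold change was 0.18 over the members and -0.03 over all genes.

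Ddit4 gave 34.6, 37.4 and 44.1 CPM in the unstimulated samples and 11.7, 8.55 and 10.98 CPM with CpG. The groups lay far apart, with 35 to 50 counts per unstimulated sample and 12 to 22 with CpG. The fold change was 3.67 downward, with a log2 fold change of -1.88 (SE 0.24, adjusted p = 1.87e-08). Among the members this was the change of largest size in the comparison, and no other setting tried changed its call.

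Tsc1, the scaffold of the TSC complex, read 46.4, 42.8 and 44.1 CPM in unstimulated samples and 22.1, 20.7 and 27.5 CPM with CpG. Every CpG sample lay below every unstimulated one, and the log2 fold change was -0.91 (SE 0.20, adjusted p = 0.00016). Tsc2, which carries the GTPase-activating domain, read 30.9, 24.6 and 20.3 CPM and then 23.9, 20.7 and 22.5 CPM. These groups overlapped, and the log2 difference of -0.17 had a 95% interval from -0.62 to 0.28. The 3′ end of Tsc2 overlaps that of Pkd1 on the other strand by 693 bases, and whether the counting used strand is not stated in the sources used here, so its level is uncertain.

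Rheb, the GTPase that switches mTORC1 on, read 72.8, 78.1 and 69.7 CPM in unstimulated samples and 151.6, 141.1 and 144.3 CPM with CpG. The spread within each group was small (SD 4.23 and 5.40 CPM), and Rheb was 1.99-fold higher (log2 fold change 0.99, SE 0.12, adjusted p = 2.03e-08). Its promoter is the one with the E-box shown above.

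Rictor, which defines mTORC2, read 90.1, 88.8 and 74.1 CPM in unstimulated samples and 41.1, 39.2 and 40.9 CPM with CpG. It was 2.08-fold lower, with a log2 fold change of -1.05 (SE 0.17, adjusted p = 1.69e-06), and the groups did not overlap. Rptor, which defines mTORC1, moved the other way, with 22.8, 38.5 and 23.8 CPM against 52.2, 37.1 and 37.9 CPM. Unstimulated replicate 2 lay among the CpG samples, so these groups overlapped, but the log2 fold change of 0.60 (SE 0.21, adjusted p = 0.0134) passed the test. Mlst8, the small subunit of both complexes, had 9 to 13 counts per unstimulated sample and 24 to 29 with CpG. It read 9.1, 9.63 and 11.5 CPM against 14.7, 20.7 and 14.0 CPM.

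The log2 fold change of Mlst8 was 0.68 (SE 0.32, adjusted p = 0.0549). That call was lost without unstimulated replicate 1 (adjusted p = 0.129), without CpG replicate 2 (0.166) and with DESeq2 (0.131). Mlst8 lies within 441 bases of the 3′ end of Pgp and overlaps Bricd5 by 1586 bases, both on the other strand, and its level carries the same uncertainty as that of Tsc2. The kinase itself did not pass the test. Mtor read 23.7, 31.0 and 34.4 CPM in unstimulated samples and 30.1, 26.4 and 37.9 CPM with CpG, with a log2 difference of 0.10 and a 95% interval from -0.32 to 0.53.

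Of the 2 substrates, Eif4ebp1 read 35.5, 38.5 and 32.6 CPM in unstimulated samples and 114.8, 89.8 and 84.9 CPM with CpG. It was 2.72-fold higher, the largest rise among the members (log2 fold change 1.44, SE 0.17, adjusted p = 7.25e-09), and the groups did not overlap. Rps6kb1 rose far less, from 97.4, 74.9 and 97.95 CPM to 101.9, 116.2 and 108.8 CPM, a log2 fold change of 0.26 (SE 0.13, adjusted p = 0.0759) with a 95% interval from -0.01 to 0.54. This call was lost under 6 other settings (adjusted p from 0.109 to 0.224) and without unstimulated replicate 2 (0.277) or CpG replicate 2 (0.131). Its 3′ end overlaps that of Rnft1 on the other strand by 155 bases.

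**Figure D2:**
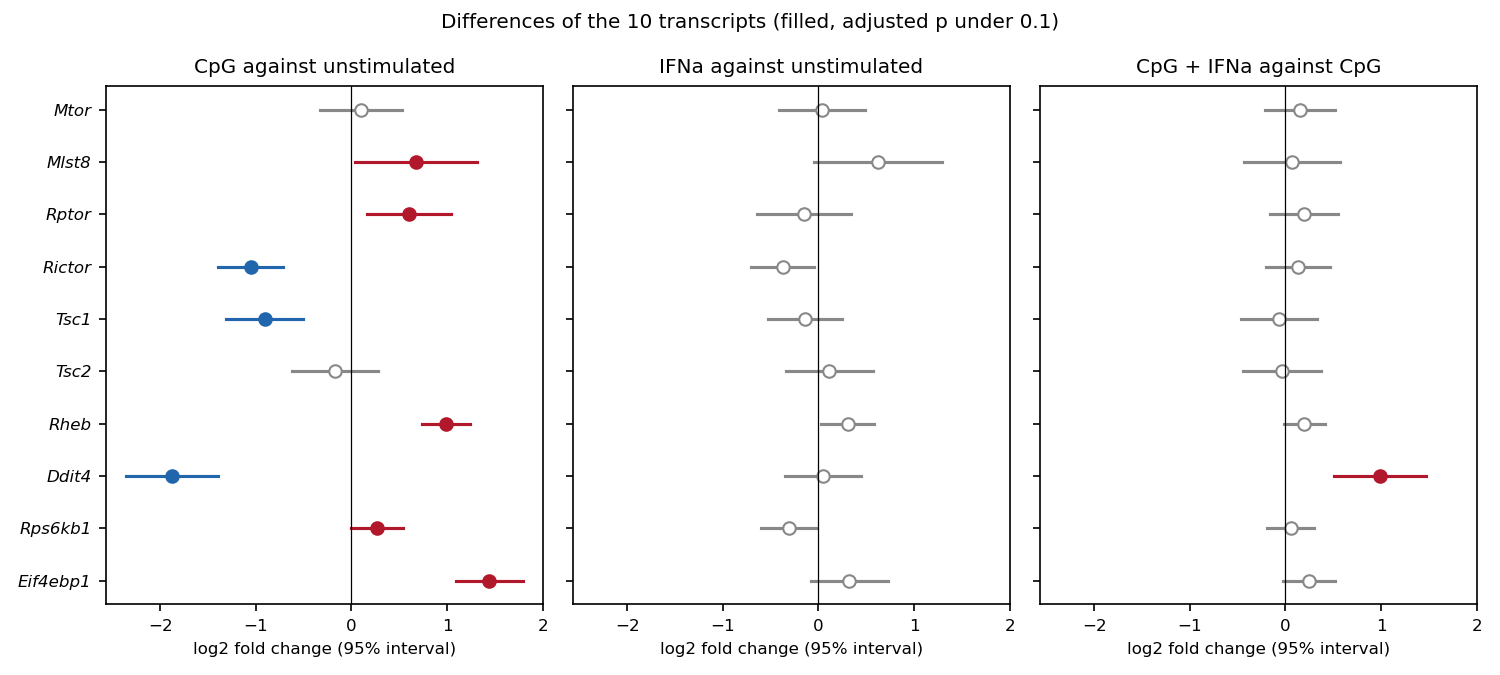
Log2 fold changes of the 10 transcripts (points) with 95% intervals (lines) in 3 comparisons, filled where the adjusted p was under 0.1, red for higher and blue for lower. Under CpG 8 of 10 are filled, with Ddit4 furthest to the left at -1.88, whereas no member is filled for IFNa alone and Ddit4 alone is filled, at 0.99, when IFNa was added to CpG.

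IFNa against unstimulated cells. With IFNa alone 0 of 10 members were called higher and 0 lower, beside 12.4% and 11.9% of all genes tested. At an unadjusted p under 0.05 there were 3 members, beside 30.2% of all genes, and DESeq2 called 0, beside 18.0%. Rictor read 55.5, 74.8 and 61.8 CPM with IFNa, with a log2 difference of -0.37 from unstimulated cells (SE 0.16, adjusted p = 0.113). Rheb read 96.9, 85.7 and 90.8 CPM, above every unstimulated sample, with a log2 difference of 0.30 (SE 0.13, adjusted p = 0.117). Rps6kb1 read 69.6, 81.5 and 67.2 CPM, a log2 difference of -0.30 (SE 0.14, adjusted p = 0.145).

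These 3 lay near the threshold, and the count of called members changed with the scaling and with the samples. Rictor was called with RLE size factors (-0.39, adjusted p = 0.0937), by library size alone (-0.45, adjusted p = 0.0542), without rRNA and mitochondrial genes (-0.41, adjusted p = 0.0753) and with the replicate number as a block (-0.39, adjusted p = 0.073). Rps6kb1 was called by library size alone (adjusted p = 0.06) and without rRNA and mitochondrial genes (0.0968). Without unstimulated replicate 3 or CpG + IFNa replicate 1 Rictor was called (adjusted p = 0.0615 and 0.0929), and without unstimulated replicate 2 Rps6kb1 was (0.0651). Without IFNa replicate 2, 4 members were called, Rictor (adjusted p = 0.0495), Rps6kb1 (0.0811), Rheb and Eif4ebp1 (both 0.0976), beside 24.5% of all genes. Without both libraries rich in rRNA 3 were called, beside 25.0%. Mlst8 read 14.1, 18.2 and 13.7 CPM with IFNa, also above every unstimulated sample, with a log2 difference of 0.63 and a 95% interval from -0.04 to 1.29. Ddit4 read 41.4, 35.3 and 45.0 CPM, which overlapped the unstimulated values, with a log2 difference of 0.05 and a 95% interval from -0.34 to 0.45. For Mtor (35.3, 25.5 and 32.0 CPM), Rptor (29.3, 23.7 and 23.7 CPM), Tsc1 (43.4, 46.8 and 30.5 CPM), Tsc2 (30.3, 28.6 and 23.7 CPM) and Eif4ebp1 (45.4, 35.9 and 53.4 CPM) the groups overlapped as well.

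CpG + IFNa against CpG. This comparison asks what IFNa added to TLR9 stimulation, and Ddit4 was the single member called. It read 21.3, 24.2 and 16.4 CPM with CpG + IFNa against 11.7, 8.55 and 10.98 CPM with CpG. All 3 samples lay above all CpG samples, and the fold change was 1.98 (log2 fold change 0.99, SE 0.23, adjusted p = 0.00332). Of the 10 members 1 was thus higher and 0 were lower, beside 6.54% and 8.83% of all genes tested. The Ddit4 call was kept with each sample left out in turn (log2 fold change from 0.84 to 1.12, adjusted p from 0.00158 to 0.047) and without both libraries rich in rRNA (0.84, adjusted p = 0.0391).

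The other members differed by less than the test could separate from the spread. Rheb read 160.4, 175.3 and 165.5 CPM with CpG + IFNa, above all CpG samples, with a log2 difference of 0.20 and a 95% interval from -0.01 to 0.41. Eif4ebp1 read 126.6, 110.4 and 106.9 CPM, a log2 difference of 0.25 with an interval from -0.02 to 0.52, and was called without CpG replicate 1 (0.39, adjusted p = 0.0976). Rptor read 41.5, 46.9 and 57.0 CPM and Rictor 32.7, 50.7 and 47.8 CPM, both overlapping the CpG samples. Mtor (33.3, 32.4 and 41.6 CPM), Mlst8 (16.9, 21.04 and 11.8 CPM), Tsc1 (19.6, 24.8 and 22.6 CPM), Tsc2 (25.1, 19.7 and 21.6 CPM) and Rps6kb1 (105.3, 116.3 and 116.7 CPM) overlapped them too.

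CpG + IFNa against unstimulated cells and against IFNa. These comparisons share their samples with those above, so that their values are given side by side. Against unstimulated cells 5 members were higher and 3 were lower, beside 37.6% and 38.8% of all genes, and they were the same 8 genes as with CpG alone. Eif4ebp1 was 3.22-fold and Rheb 2.28-fold higher (log2 fold changes 1.69, SE 0.17, and 1.19, SE 0.12), while Ddit4 was 1.85-fold lower (log2 fold change -0.89, SE 0.20, adjusted p = 0.000209), where CpG alone had given 3.67-fold. Mlst8 lost its call without CpG + IFNa replicate 2 (log2 fold change 0.52, adjusted p = 0.168) and without both libraries rich in rRNA (0.51, adjusted p = 0.17), as did Rps6kb1 without unstimulated replicate 2 (0.23, adjusted p = 0.146). Against IFNa, 4 members were higher (Rptor, Rheb, Rps6kb1 and Eif4ebp1) and 3 were lower (Rictor, Tsc1 and Ddit4), beside 36.1% and 39.8%. Ddit4 was 1.92-fold lower there (log2 fold change -0.94, SE 0.19, adjusted p = 5.6e-05).

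The interaction tests whether IFNa acted differently with CpG than without it. Of the members 1 (Ddit4) had a higher response to IFNa with CpG and 0 a lower one, beside 5.84% and 7.58% of all genes. The IFNa effect on Ddit4 was 0.05 on the log2 scale without CpG and 0.99 with it, a difference of 0.94 (SE 0.31, adjusted p = 0.0501). This call was lost with DESeq2 (0.96, adjusted p = 0.149), without unstimulated replicate 3 (0.90, adjusted p = 0.11), without CpG replicate 2 (0.82, adjusted p = 0.132), without CpG + IFNa replicate 2 (0.78, adjusted p = 0.164) and without both libraries rich in rRNA (0.68, adjusted p = 0.227). In order of level, Ddit4 stood highest with IFNa and in unstimulated cells, which did not differ beyond their spread, then with CpG + IFNa, then with CpG.

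Pairs of members were also compared as ratios within each library, which do not depend on the scaling between libraries, with 2-sided exact permutation tests of the CpG effect within IFNa status and of the IFNa effect within CpG status. There were 8 tests, each over 400 arrangements of the 12 samples, for which 0.005 is the smallest p possible, and adjusted values are over the 8. The log2 ratio of Rptor to Rictor was -1.96, -1.19 and -1.62 in unstimulated samples and 0.34, -0.08 and -0.11 with CpG. The ratio of the mTORC1 to the mTORC2 subunit was thus higher in every sample with CpG, by 1.56 on the log2 scale (exact p = 0.005, adjusted p = 0.0133), and the IFNa effect of 0.20 did not pass (adjusted p = 0.427).

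The log2 ratio of Rheb to Tsc1 plus Tsc2, activator over inhibitors, was -0.09, 0.21 and 0.11 in unstimulated samples, 0.39, 0.18 and 0.74 with IFNa, 1.71, 1.76 and 1.53 with CpG, and 1.84, 1.97 and 1.90 with CpG + IFNa. All 6 samples with CpG lay above all 6 without, by 1.53 on the log2 scale (exact permutation p = 0.005, adjusted p = 0.0133). The IFNa effect was smaller, 0.30 (exact permutation p = 0.01, adjusted p = 0.02), and it did not pass when libraries were thinned to the smallest total (0.19, adjusted p = 0.408) or with the replicate number as a block (adjusted p = 0.125). The ratio of Rps6kb1 to Eif4ebp1 fell by 0.93 with CpG (adjusted p = 0.0133) and by 0.41 with IFNa (exact permutation p = 0.06, adjusted p = 0.096). Leaving out any of 8 samples lost the latter call (adjusted p from 0.112 to 0.224). The CpG difference was -1.14 without IFNa and -0.73 with it, and the IFNa difference -0.62 without CpG and -0.21 with it. The ratio of Mlst8 to Mtor did not pass with either (0.22, adjusted p = 0.509, and 0.16, adjusted p = 0.56). Each of these averages differences of opposite sign. The CpG difference was 0.58 without IFNa and -0.14 with it, and the IFNa difference 0.52 without CpG and -0.20 with it.

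**Figure D3:**
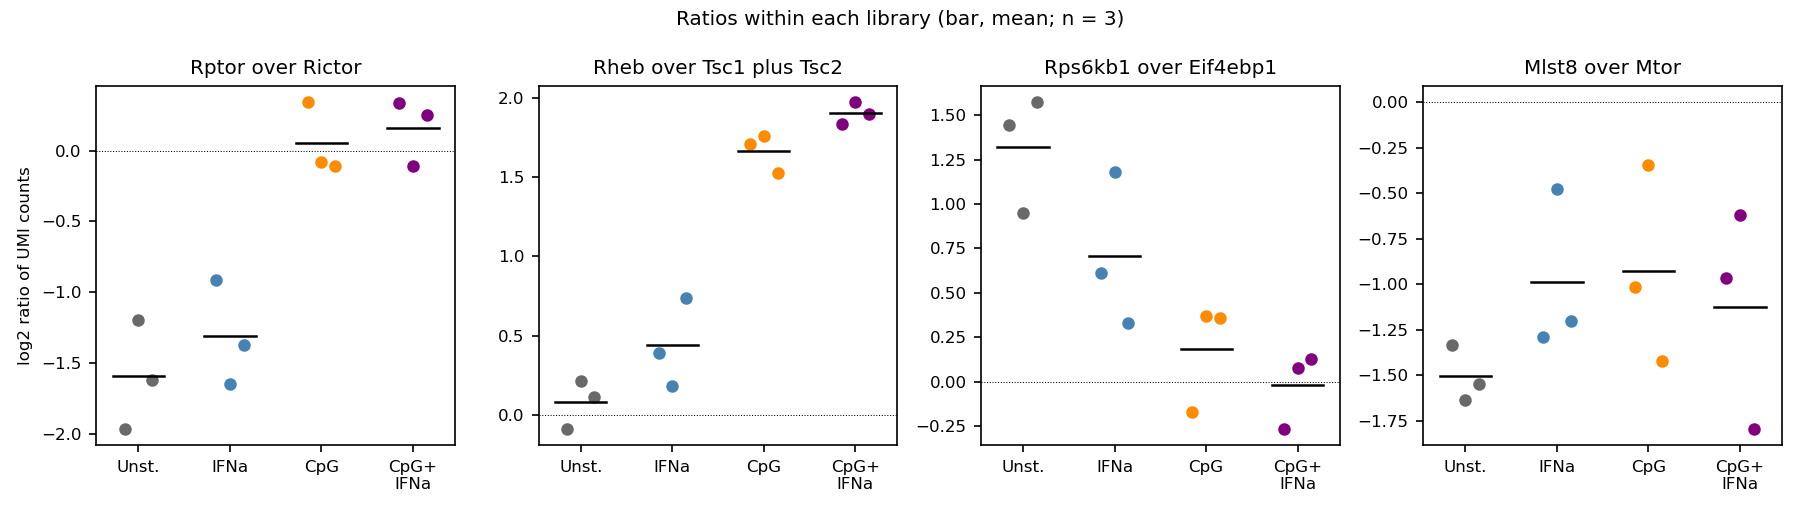
Log2 ratio of UMI counts of 4 pairs within each library, with points for samples and bars for the group mean (n = 3), and a dotted line at equal counts. The first 2 ratios separate all samples with CpG from all samples without it, and the ratio of Mlst8 to Mtor shows the IFNa, CpG and CpG + IFNa samples overlapping.

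The wider pathway was described with a list of 85 genes by role, of which 84 were in the table and 72 passed the filter. With CpG 26 of the 72 were higher and 31 lower, against 36.5% and 38.4% of all genes. With IFNa the counts were 6 and 11 (12.4% and 11.9% of all genes), and with CpG + IFNa 26 and 33 (37.6% and 38.8%). Between CpG + IFNa and CpG they were 5 and 11 (6.54% and 8.83%), against IFNa 25 and 32 (36.1% and 39.8%), and in the interaction 1 and 9 (5.84% and 7.58%). The counts by role that follow stand beside the same shares of all genes, 36.5% higher and 38.4% lower with CpG, and were not tested against them. Median log2 fold changes over the list were -0.24 with CpG, -0.04 with IFNa and -0.04 between CpG + IFNa and CpG.

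Of 6 other subunits and assembly factors of the complexes, 5 were higher with CpG and 1 was lower. Of these, Akt1s1, Mapkap1 and Prr5 are subunits, while Telo2, Tti1 and Tti2 serve assembly. Telo2, a chaperone of mTOR assembly, was 2.74-fold higher (log2 fold change 1.45, SE 0.25, adjusted p = 4.81e-06), as were its partner Tti2 (0.86, adjusted p = 0.0306) and Akt1s1, the PRAS40 subunit of mTORC1 (0.88, adjusted p = 0.000127). The Tti2 groups overlapped, and its call was lost with thinned counts (0.66, adjusted p = 0.161) and without unstimulated replicate 3 (0.60, adjusted p = 0.174). Prr5, a subunit of mTORC2, was lower, from 87.1 ± 4.62 to 40.6 ± 1.04 CPM (SD, n = 3), a log2 fold change of -1.10. Prr5 also fell with IFNa alone (-0.65, adjusted p = 0.00153). Rictor and Prr5 were thus both lower with CpG, while Mapkap1, a further subunit of mTORC2, was higher (0.53, adjusted p = 0.00426). Mapkap1 was named after its value was seen. Deptor had at most 2 counts in any sample and was not tested.

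Tbc1d7, the small subunit of the TSC complex, went against its partner Tsc1, from 3.94 ± 2.34 CPM in unstimulated cells to 19.2 ± 3.77 CPM with CpG (log2 fold change 2.30, SE 0.40, adjusted p = 5.61e-06). Rhebl1, the paralogue of Rheb, read 10.7, 14.1, 16.3 and 17.8 CPM on average in unstimulated, IFNa, CpG and CpG + IFNa samples and passed the test only for the last against unstimulated cells (0.78, adjusted p = 0.0315), a call that was lost without unstimulated replicate 1 (0.53, adjusted p = 0.181). Ddit4l, the paralogue of Ddit4, had 1 count in 1 IFNa sample and none in the others.

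The sestrins, which restrain mTORC1 through GATOR2, differed among themselves. Sesn1 fell from 113.4 ± 21.5 to 15.9 ± 4.74 CPM with CpG (log2 fold change -2.86, adjusted p = 3.15e-14) and was at 9.33 ± 3.38 CPM with CpG + IFNa. Sesn3 was at 113.3 ± 9.08 CPM in unstimulated cells, 75.8 ± 10.2 CPM with CpG and 36.5 ± 7.16 CPM with CpG + IFNa, a log2 fold change of -1.07 between the last groups (SE 0.15, adjusted p = 2.03e-06). Sesn2 rose, from 11.7 ± 0.72 to 26.8 ± 4.16 CPM with CpG and to 40.8 ± 7.77 CPM with CpG + IFNa. The last step had a log2 fold change of 0.61 (SE 0.22, adjusted p = 0.0715), the same direction as Ddit4, and was not called with DESeq2 (adjusted p = 0.217), without both libraries rich in rRNA (0.191), with thinned counts (0.12) or without CpG replicate 1 or 3 or CpG + IFNa replicate 1 or 2 (adjusted p from 0.136 to 0.289).

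On the lysosome, where Rag GTPases recruit mTORC1, 4 of 8 genes were higher and 3 were lower with CpG. Lamtor5 and Lamtor3 of the Ragulator scaffold rose (0.91 and 0.56), as did Lamtor1 (0.39) and, with CpG + IFNa, Rragc (0.39), while Lamtor2 and Lamtor4 fell (-0.68 and -0.40) and fell again when IFNa was added to CpG (-0.56, adjusted p = 0.0234, and -0.75, adjusted p = 0.00273). The arginine sensor Slc38a9 was 46.8 ± 10.9 CPM in unstimulated cells and 9.26 ± 2.28 CPM with CpG (log2 fold change -2.32). With IFNa alone Lamtor1 was higher (0.51, adjusted p = 0.0143). Several of these small differences depended on the setting. The further fall of Lamtor2 was not called with thinned counts (-0.47, adjusted p = 0.138), without both libraries rich in rRNA (-0.41, adjusted p = 0.155), or without CpG replicate 1 or 3 or CpG + IFNa replicate 2 (adjusted p from 0.113 to 0.201). The fall of Lamtor4 with CpG was not called without a filter (-0.34, adjusted p = 0.184) or without unstimulated replicate 2 or 3 or CpG replicate 3 (adjusted p from 0.125 to 0.154). Without unstimulated replicate 3 Lamtor1 was called neither with CpG (0.31, adjusted p = 0.11, and 0.18, adjusted p = 0.348, with thinned counts) nor with IFNa (0.42, adjusted p = 0.105), and without unstimulated replicate 1 Rragc was not called (0.23, adjusted p = 0.177).

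Of 14 genes of amino acid sensing, 5 were higher and 6 lower with CpG. Those that rose included Seh1l and Sec13 (log2 fold changes 1.83 and 1.60), which serve GATOR2 and also the nuclear pore, and Itfg2 of KICSTOR (0.83). Those that fell included Fnip1, the partner of folliculin (-1.10), and Depdc5 of the inhibitory GATOR1 complex (-1.06). Wdr59 of GATOR2 was the only gene of this role that rose when IFNa was added to CpG (0.86, adjusted p = 0.0393), and it was not called with DESeq2 (0.116), without CpG replicate 2 (0.70, adjusted p = 0.167) or without CpG + IFNa replicate 3 (0.63, adjusted p = 0.211). Mios of GATOR2 was higher with CpG + IFNa than with IFNa (1.38), whereas Nprl2 of GATOR1 was lower (-0.99). With IFNa alone Mios was lower (-0.56, adjusted p = 0.0611), but not with DESeq2 (0.153), without a filter (0.165), in a fit of the groups compared (0.103), without both libraries rich in rRNA (0.156), or without unstimulated replicate 2 or IFNa replicate 2 or 3 (0.158 to 0.224).

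Of 21 genes of PI3K, AKT and AMPK signalling, 13 fell with CpG and 3 rose, with a median log2 fold change of -0.56. Sgk1, a substrate of mTORC2, read 30.9 CPM on average in unstimulated cells and 15.7 CPM with IFNa, and had at most 2 counts in any CpG sample. Pik3r5, a regulatory subunit of PI3K gamma, read 18.5 CPM in unstimulated cells and had at most 2 counts with CpG. Inpp5d, the SHIP1 phosphatase, fell from 173.3 ± 11.5 to 26.0 ± 6.11 CPM.

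Pik3cg, the catalytic subunit of PI3K gamma, read 93.5 ± 14.97 CPM in unstimulated cells, 53.3 ± 4.20 with IFNa, 22.9 ± 5.97 with CpG and 6.18 ± 0.64 with CpG + IFNa. Addition of IFNa to CpG lowered it by 1.88 on the log2 scale (log2 fold change -1.88, SE 0.25, adjusted p = 9.9e-07), and Inpp5d (-0.82, adjusted p = 0.00588) and Pik3cd (-0.68, adjusted p = 0.00848) fell as well. Inpp5d was not called with thinned counts (-0.70, adjusted p = 0.137), nor Pik3cd without CpG + IFNa replicate 2 (-0.45, adjusted p = 0.145) or without both libraries rich in rRNA (-0.45, adjusted p = 0.117). The genes that rose with CpG were Akt1 (1.101), Prkaa1, the catalytic subunit of AMPK (0.72), and Sgk3 (0.63). Akt1 read 150.7 ± 6.63 CPM with CpG and 112.1 ± 15.6 CPM with CpG + IFNa. In the same order Prkaa1 read 26.1 ± 1.6 and 28.8 ± 4.92 CPM, and Sgk3 56.1 ± 8.7 and 43.1 ± 2.62 CPM. With CpG + IFNa, Prkab2 of AMPK was higher than in unstimulated cells (0.74, adjusted p = 0.0281), but not without unstimulated replicate 2 (0.49, adjusted p = 0.159), CpG + IFNa replicate 2 (0.52, adjusted p = 0.168) or both libraries rich in rRNA (0.51, adjusted p = 0.146). Pik3ap1, the BCAP adaptor, was higher with IFNa alone (1.08, adjusted p = 0.00203), as was Prkaa1 (1.04). Pik3ap1 was also higher with CpG + IFNa than with CpG (0.73, adjusted p = 0.0453), a call lost with DESeq2 (0.166), thinned counts (0.12), without both libraries rich in rRNA (0.135) and without CpG replicate 1 or 3 or CpG + IFNa replicate 1 or 2 (0.102 to 0.155).

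Downstream of mTORC1, 7 of 11 genes of the S6 kinase and 4E-BP arms rose with CpG and 1 fell. Eif4e, the cap-binding factor that 4E-BP1 holds, rose from 26.2 ± 8.93 to 160.7 ± 5.59 CPM (log2 fold change 2.58, SE 0.17, adjusted p = 4.87e-15), and the helicase Eif4a1 rose from 295.2 ± 35.5 to 1760 ± 145.8 CPM. Larp1, the repressor of terminal oligopyrimidine mRNAs, rose by 2.06. Pdcd4, an inhibitor of Eif4a1 that S6 kinase marks for degradation, fell in all 5 comparisons between groups, from 348.1 ± 46.8 CPM in unstimulated cells to 149.5 ± 8.89 with IFNa, 69.2 ± 15.4 with CpG and 28.3 ± 3.93 with CpG + IFNa. With IFNa added to CpG, Larp1 was higher by 0.33 (adjusted p = 0.042), but not without CpG replicate 2 or 3 or CpG + IFNa replicate 1 or 2 (adjusted p from 0.116 to 0.17). Eif4g1 was near the threshold (0.34, adjusted p = 0.0962) and was not called with DESeq2 (0.146), thinned counts (0.122), without both libraries rich in rRNA (0.23, adjusted p = 0.352) or without any 1 of 5 of the 6 samples compared (0.22 to 0.38, adjusted p from 0.146 to 0.429). Eef2k, the kinase that restrains elongation, had 6 to 9 counts per sample with CpG + IFNa and was lower than in unstimulated cells (-0.99, adjusted p = 0.0501), but not with DESeq2 (0.111), without a filter (0.16), or without unstimulated replicate 2 or 3 or CpG + IFNa replicate 2 (0.114 to 0.137).

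Paralogues of both substrates were measured. Rps6kb2 read 24.4 ± 1.12 CPM in unstimulated cells, 14.6 ± 5.78 with IFNa, 19.4 ± 5.66 with CpG and 18.8 ± 3.72 with CpG + IFNa and passed the test in no comparison. Eif4ebp2 read 220.1 ± 5.86, 266.2 ± 23.7, 216.0 ± 15.6 and 155.6 ± 12.8 CPM in the same order. It was lower when IFNa was added to CpG (log2 fold change -0.47, SE 0.11, adjusted p = 0.00278), where Eif4ebp1 was not called. Eif4ebp3 was the gene of the list that was not in the count table. Among other substrates 0 of 7 rose with CpG and 5 fell, including Lpin1 (-2.85), the lysosomal regulator Tfeb (-2.28) and the autophagy kinase Ulk2 (-2.00). Tfeb fell further when IFNa was added to CpG, from 20.9 ± 2.53 to 9.50 ± 1.13 CPM (log2 fold change -1.15, SE 0.24, adjusted p = 0.000705), and it also fell with IFNa alone (-0.60, and -0.41, adjusted p = 0.103, without unstimulated replicate 1), as did Ulk2 (-0.92).

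**Figure D4:**
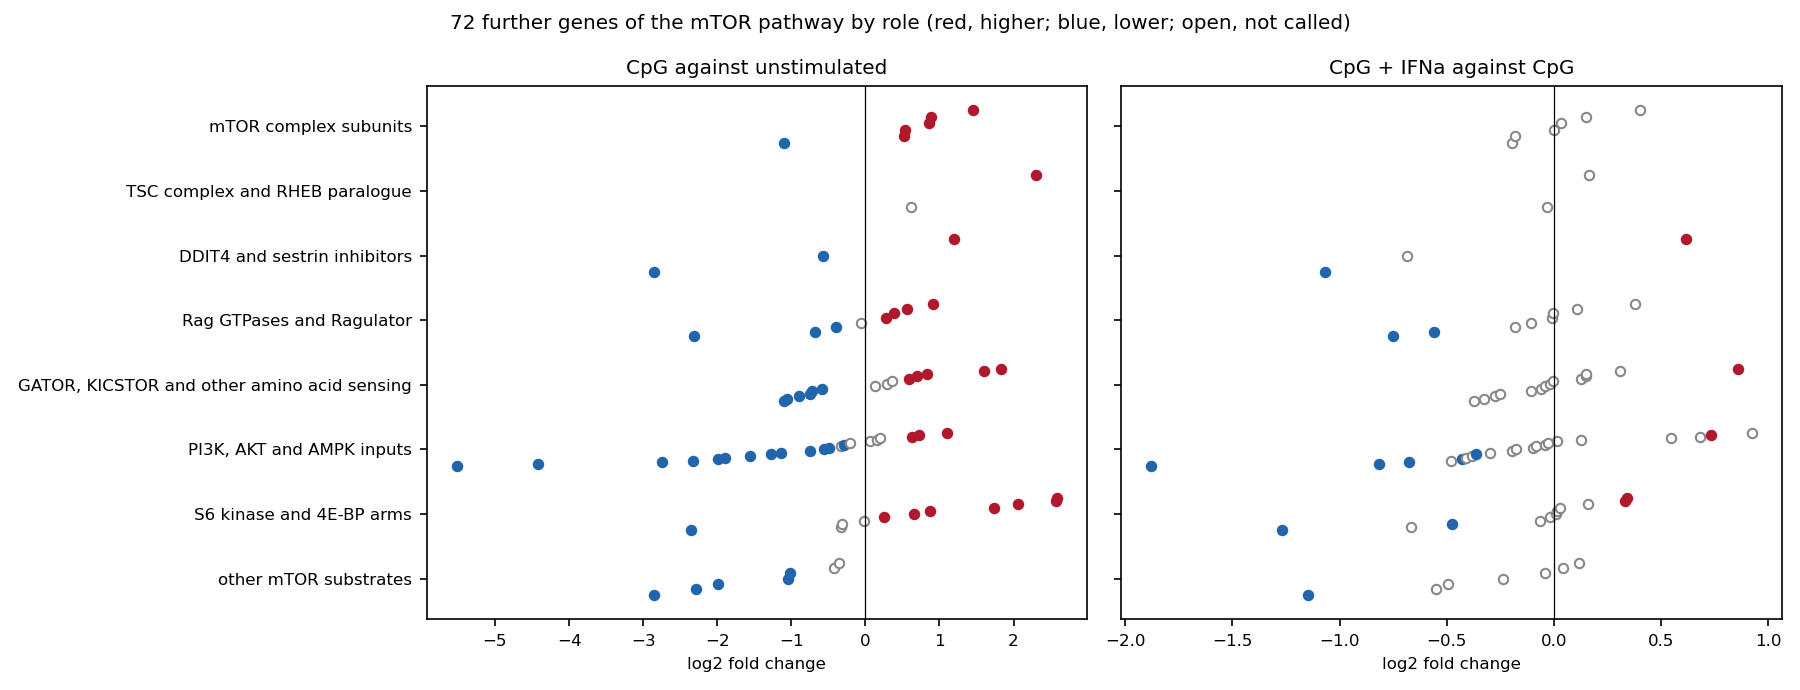
Log2 fold changes (horizontal axes, with a different range in each panel) of the 72 further genes of the pathway by role, with CpG against unstimulated cells on the left and CpG + IFNa against CpG on the right, where each point is a gene, red higher, blue lower and open not called. On the left 26 are red and 31 blue, with medians of -0.56 for the upstream inputs and -1.05 for other substrates, and on the right 5 are red and 11 blue.

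The pattern of each member over the 12 samples was compared with those of 6399 genes of at least 20 CPM, by the root mean square difference of centred log2(CPM + 1) values, in which a small value is a close match. Closest to Rheb were Arf1 (0.09), a GTPase of the Golgi, and Psma1 (0.10), a proteasome subunit. Closest to Eif4ebp1 were Mrpl54 (0.09) and Psmc2 (0.11). Rictor was nearest to Phf20l1 (0.11) and Gna13 (0.14), and Tsc1 to Phc3 (0.11) and mt-Nd6 (0.15). The nearest genes to Rptor were Gm13436 (0.15) and Tnpo2 (0.16), to Mlst8 Ofd1 (0.17) and Dync1li2 (0.18), and to Rps6kb1 Wsb1 and Upf1 (both 0.11). Mtor and Tsc2, which vary little, were nearest to Rpl34-ps1 (0.11) and Snx3 (0.14) and to Chmp3 (0.11) and Rad21 (0.14). Ddit4 had no match as close, with 0.25 for both Tap2, a peptide transporter of antigen presentation, and Trim26. Gm13436 and Rpl34-ps1 may share reads with similar copies, and their counts are uncertain.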

How the data were processed

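The authors' deposited table holds UMI counts per gene from bulk RNA barcoding (BRB) sequencing. Per the labels and the methods of the study, reads were processed with UMI-tools 1.1.2, Trim Galore 0.6.7, HISAT2 2.2.1 on GRCm38 and featureCounts 2.0.1, and UMI duplicates were collapsed. The annotation release and strand setting are not given in the sources used here. All 22561 gene identifiers matched GENCODE M21.

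Counts were analysed in R 4.3.3 with edgeR 4.0.16, which scaled libraries by TMM, removed low genes with filterByExpr and fitted all 4 groups at once with glmQLFit and glmQLFTest (9431 genes, 8 residual degrees of freedom). Adjusted p-values are Benjamini-Hochberg values over all genes tested, called under 0.1. Intervals of 95% use the moderated degrees of freedom. Ratios used a prior of 0.5 counts and exact permutation tests. UMI depth limits low genes, and intervals cover the spread between samples.

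The members, the list of 85 pathway genes, its roles and the marker lists (B cell, follicular, T cell, myeloid, plasmacytoid dendritic, erythroid, plasma and marginal zone) were chosen with earlier results of these data known. Plasma cell markers summed to between 24.6 and 35.9 CPM without CpG and between 3.68 and 6.00 CPM with it, and marginal zone markers to between 178 and 191, 81.7 and 102, 42.4 and 55.6, and 27.3 and 36.0 CPM in unstimulated, IFNa, CpG and CpG + IFNa samples. Sdc1 was the largest part of the plasma cell sum without CpG, at 12.8 to 31.3 CPM, and read 0.69 to 2.14 CPM with CpG. Prdm1 read 1.07 to 6.18 CPM in unstimulated samples, a range that held both groups with CpG (2.46 to 3.49 CPM). Dtx1 made up most of the marginal zone sum, and Cd9 overlapped between unstimulated, IFNa and CpG samples. Tcf4 made up nearly all of the plasmacytoid list (142 to 448 CPM) and is also expressed in B cells. Named pathway genes are up to 3 in each direction per role and comparison by size of log2 fold change among those called, with the paralogues of members, and a few genes of these lists are counted but not reported by name here. Nearest patterns are 2 per member. Alternatives were other scalings (DESeq2 1.42.0's among them), filters, tests, thinned counts, the replicate number as a block and samples left out. The promoters were also searched for an interferon-stimulated response element and a kappaB site, which no member's promoter matched. Those searches were left out of the report after their result was seen, because their letters are not printed here. The barcodes in the deposited list of sample barcodes were not used.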

Additional observations from a re-analysis of the deposited data

Results flagged for a closer look

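The IFNa effect differed with and without CpG, by the interaction term of edgeR's quasi-likelihood test, for the member Ddit4, by 0.94 on the log2 scale (adjusted p = 0.0501). Among the 72 further pathway genes it did so for Mios, by 0.69 (adjusted p = 0.0875). In the other direction the differences were -0.83 for Sesn1 (adjusted p = 0.0946), -0.67 for Sesn3 (0.0394), -0.68 for Lamtor4 (0.0817), -1.09 for Pik3cg (0.021), -0.66 for Sgk3 (0.0838), -0.91 for Prkaa1 (0.0638), -0.74 for Eif4ebp2 (0.00182), -0.89 for Atg13 (0.0645) and -0.55 for Maf1 (0.0383). With DESeq2 the members called fell from 1 to 0 and the further genes called from 10 to 2, while calls over all genes fell from 5.84% higher and 7.58% lower to 8.04% in both directions together. With 1 sample left out in turn, each of these calls but that of Eif4ebp2 was lost at least once. Those of Sesn1, Lamtor4 and Sgk3 were lost with RLE size factors (adjusted p = 0.106, 0.105 and 0.107), by library size alone and without rRNA and mitochondrial genes. That of Atg13 was lost by library size alone. Without a filter, Sesn1, Lamtor4, Mios, Prkaa1, Sgk3, Atg13 and Maf1 lost their calls, and with thinned counts Lamtor4, Mios, Prkaa1, Sgk3 and Atg13 did. Without both libraries rich in rRNA the calls of Mios (0.63, adjusted p = 0.193), Sgk3 (-0.69, adjusted p = 0.131) and Atg13 (-0.94, adjusted p = 0.105) were lost, as was that of Ddit4 (0.68, adjusted p = 0.227).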

How the results depend on the processing

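Counts of called genes, fold changes of members and of pathway genes named by size, and the ratios were recomputed under other settings. No such values are given for marker levels, motif matches, nearest patterns or Mapkap1. DESeq2 changes the scaling, the dispersion model and the test together, and a fit of the groups compared or of thinned counts also changes the genes tested. Leaving out both libraries rich in rRNA, and all other settings for the wider list, were chosen after seeing the data. Members called with IFNa against unstimulated cells numbered 1 with RLE size factors, 2 by library size alone, 2 without rRNA and mitochondrial genes, 1 with the replicate block and 3 without both libraries rich in rRNA, beside 24.4%, 25.5%, 24.7%, 26.0% and 25.0% of all genes tested. In the interaction they numbered 0 with DESeq2, without both of those libraries, at an adjusted p under 0.05 and with a fold change over 2 as well, beside 8.04%, 11.9%, 9.0% and 6.26%. With a fold change over 2 as well, members called were 3 with CpG, 2 with CpG + IFNa, 0 between CpG + IFNa and CpG, and 1 against IFNa, beside 45.6%, 45.9%, 4.96% and 44.3%. The wider list of 72 genes then gave 3 with IFNa (8.63% of all genes), 30 with CpG, 36 with CpG + IFNa, 4 between CpG + IFNa and CpG, 35 against IFNa and 1 in the interaction, beside the same shares of all genes as for the members. Between CpG + IFNa and CpG the wider list gave 10 with thinned counts and 10 without both libraries rich in rRNA (954 of all 8676 genes tested and 1075 of 9485). In the interaction it gave 6 by library size alone, 3 without a filter, 5 with thinned counts and 2 with DESeq2 (12.6%, 5.12%, 9.38% and 8.04%). The cause of these differences was not tested.

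With 1 sample left out in turn, members called ranged from 0 to 4 with IFNa, 1 to 2 between CpG + IFNa and CpG and 0 to 2 in the interaction (beside 19.6% to 24.8%, 10.1% to 17.0% and 9.59% to 15.4% of all genes), and the wider list from 9 to 18 and from 3 to 12 in the last comparisons. The IFNa effect on the ratio of Rps6kb1 to Eif4ebp1 ranged from -0.53 to -0.32. It was -0.40 with a prior of 2 counts, -0.24 with thinned counts and -0.41 with the replicate block (adjusted p = 0.15), none of which passed. The IFNa effect on the ratio of Rheb to Tsc1 plus Tsc2 was 0.19 thinned and 0.30 with the block, neither past the threshold. That on Rptor to Rictor was -0.04 thinned, and the CpG effect on Mlst8 to Mtor passed when thinned (0.48, adjusted p = 0.07).

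Of the fold changes of members and named pathway genes under these settings, 1680 kept direction and call, 85 kept direction but lost a call and 9 gained one, and with 1 sample left out in turn the counts were 2249, 124 and 10. Directions turned only for differences that were not called. With IFNa, Mtor was at -0.05 by library size alone and -0.003 without rRNA and mitochondrial genes, and Ddit4 at -0.03 by library size alone and -0.14 thinned. Thinned counts gave -0.063 for Mtor with CpG, 0.01 for Tsc2 with CpG + IFNa, and -0.10 for Rptor and 0.24 for Tsc2 between CpG + IFNa and CpG. Tsc2 was there at 0.026 without a filter and 0.059 without both libraries rich in rRNA, Mlst8 at -0.17 without both, and the Tsc2 interaction was 0.06 thinned.

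With 1 sample left out in turn the following uncalled differences also turned. With IFNa the ranges were -0.11 to 0.18 for Mtor, -0.29 to 0.12 for Rptor, -0.29 to 0.034 for Tsc1, -0.061 to 0.30 for Tsc2 and -0.03 to 0.16 for Ddit4. With CpG they were -0.044 to 0.24 for Mtor and -0.34 to 0.027 for Tsc2. Between CpG + IFNa and CpG they were -0.18 to 0.25 for Mlst8, -0.002 to 0.29 for Rictor, -0.16 to 0.077 for Tsc1 and -0.13 to 0.056 for Tsc2, and against IFNa -0.11 to 0.32 for Mlst8. In the interaction they were -0.027 to 0.29 for Mtor, -0.10 to 0.22 for Tsc1, -0.34 to 0.067 for Tsc2, -0.16 to 0.004 for Rheb and -0.25 to 0.071 for Eif4ebp1.

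Same-numbered samples of different groups correlated in their deviations from the group means at between -0.06 and 0.20 (18 pairs, 5 of them over 0.1), and other pairs at between -0.20 and 0.06. Of the 12 samples 10 correlated best with their own number, a hint from the data. All pairs over 0.1 were between stimulated samples. Same-numbered pairs with an unstimulated sample lay between -0.065 and 0.047. The deposited list of sample barcodes names each library WT with a number from 1 to 3, once in each of the 4 conditions, without saying whether a number stands for a mouse. With the number as a block, calls of members changed only for Rictor with IFNa (-0.39, adjusted p = 0.073). Depth limits the precision of Mlst8, with 9 to 61 counts per sample, and of Ddit4, with 12 to 70.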
